A study of Saccharomyces cerevisiae with 60 samples.

Results

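The comparison set M8, M14 and M22 against M5, M13, M32 and M34, 7 M strains of the budding yeast Saccharomyces cerevisiae growing exponentially in rich medium. It used 21 of 60 arrays of 2 colours: 9 of M8, M14 and M22, and 12 of the other 4 strains. M strains are known as vineyard isolates, which is background and not in the labels. Every array carried RNA of 1 strain beside a pool of the RNA of all 9 strains of the study in rich medium, so the pool also holds these 7 strains together with S288C and YPS163, which enter neither side. Each strain had 3 replicates. The labels name no mutation, ploidy or mating type and give no word on whether replicates came from separate cultures. In the rest of the study the same strains were grown in medium with copper sulfate.

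The strains of each side were chosen by their measured values: M8, M14 and M22 were put together because their log2 ratios to the pool had looked alike across genes in these data. The gene values below therefore describe the contrast that was chosen. They carry no test, and nothing is supported by how many genes passed a threshold. A value is the log2 ratio of strain to pool on an array centred on its median, so that 1 is a factor of 2. A difference is the mean of the 3 strain means minus the mean of the 4, from a fit that also removes an effect of the channel, with its standard error (SE). A gene is called when its adjusted p in that fit is under 0.05. Strain means do not overlap when all 3 lie above, or all 3 below, those of the other 4. Arrays of a strain share that strain, so the SE measures the spread between arrays and not between strains, and that spread may be technical. Precision is limited by how many arrays there were.

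Which channel stands on top of the ratio was inferred. Since the pool holds all 9 strains, their linear ratios to it should average 1, and over 200 genes the median absolute log2 of that average was 0.113 with channel 1 over channel 2, against 0.363 for the opposite order. The direction therefore stays an inference. Of 99 pairs of centred arrays of different strains with the same channel order, 20 correlated under -0.3, and the lowest was -0.60. After a running median over spot position was subtracted, 0 of 99 did and the lowest was -0.04. Turning the ratio over leaves these correlations unchanged, so they cannot decide the direction. With the sign turned, every difference below would change sign and every higher value would be lower.

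Most of the genes with the lowest values in M8, M14 and M22 belonged to Ty elements, the retrotransposons of yeast. A Ty element is copied through RNA and carries a short reading frame for the coat protein, TyA, and a long frame that runs through TyA into the polymerase, TyB. Ty1 and Ty2 are related families, and yeast strains differ widely in how many copies they hold. Copies of a family are nearly identical, so their spots share hybridization and the frames below are uncertain as single genes. Sulfate assimilation, also described below, reduces sulfate to sulfide for methionine and cysteine. In a bulk culture, fewer cells that make a transcript and less of it per cell cannot be told apart.

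Of 5524 genes, 20 (0.362%) were called, 3 higher (0.0543%) and 17 lower (0.308%) in M8, M14 and M22. Strain means did not overlap for 187 genes (3.39%), 59 higher (1.07%) and 128 lower (2.32%). Of those, 8 (0.145%) also differed by at least 1. These were MET5, MET17 and AI1, which were higher, and YJR027W, YER138W-A, YGR161W-B, YMR046C and HOR7, which were lower. Only 4 genes were both called and without overlap: YJR027W, YER138W-A, YGR161W-B and AI1. Of the 20 called genes, 13 were Ty frames, all lower. Another 3 were mitochondrial genes, and the other 4 were YER138W-A, MRH1, PHO84 and YGR201C.

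The likeness of the 3 strains depended on spot position. Over all genes, the centred mean of M8 correlated at -0.18 with that of M14 and at -0.48 with that of M22, while M14 and M22 correlated at 0.60, as did M22 and M34. Neighbouring spots moved together on these arrays. A running median over 15 by 15 spots held 58.4% to 62.6% of the variance of the 3 M8 arrays, 7.57% to 64.3% of that of the 6 arrays of M14 and M22, and 22.8% to 68.6% of that of the other 12. With it subtracted, M8 correlated at 0.49 with M14 and at 0.41 with M22, and M14 with M22 at 0.51. The 12 pairs across the sides then ran from -0.01 to 0.35 and the 6 pairs among M5, M13, M32 and M34 from -0.01 to 0.19. The label of M8 as similar to M14 and M22 thus held over all genes only with spot position subtracted. These correlations run across genes, which are not independent, and all strain means share the pool. Arrays of a strain often agreed poorly: the lowest correlation was -0.59 in M5, and -0.29 after the subtraction. After it, pairs of the same strain had a median of 0.31 with the same channel order (7 pairs) and 0.06 with the opposite order (14 pairs). The 99 pairs of different strains with the same channel order had a median of 0.21, above that of the 14 pairs. Only 6 of 21 arrays correlated best with an array of their own strain, before and after the subtraction. Of the M8 arrays 3 did before and 2 after it, and of the 6 arrays of M14 and M22 1 did before and 0 after it.

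**Figure D1:**
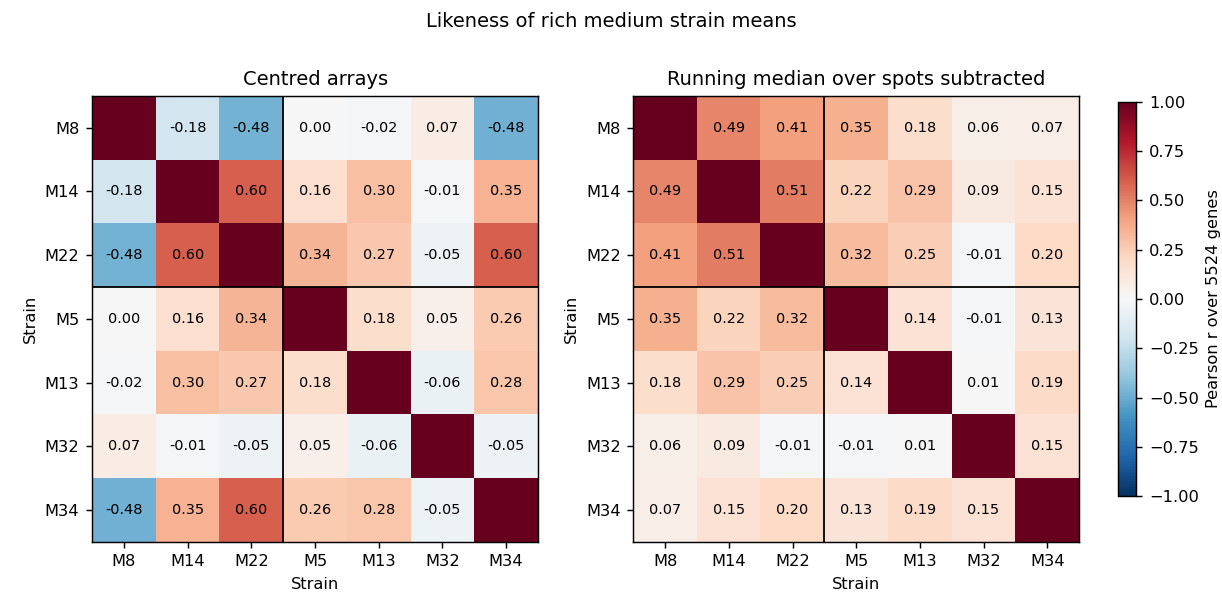
Pearson r over 5524 genes between the rich medium means of 7 strains, with centred arrays (left) and with the running median over spots subtracted (right); black lines part M8, M14 and M22 from M5, M13, M32 and M34. M8 and M22 stand at -0.48 on the left and at 0.41 on the right.

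Over the 200 most variable genes, M8 correlated at 0.73 with M14 and at 0.19 with M22 before the subtraction, and at 0.77 and 0.73 after it. After the subtraction, the correlations with M8, M14 and M22 over all genes were 0.22 to 0.35 for M5, 0.18 to 0.29 for M13, 0.07 to 0.20 for M34 and -0.01 to 0.09 for M32. M14 correlated at 0.29 with M13 and at 0.22 with M5. In the centred arrays it correlated at 0.35 with M34 and at 0.16 with M5. The copper arrays served as a check of strain identity. In the centred arrays, the 21 rich medium arrays correlated at 0.19 or more with the copper mean of their own strain over 200 genes, and 12 correlated best with it. After the subtraction the lowest was 0.44, and 17 correlated best with their own strain. All 9 arrays of M8, M14 and M22 correlated best with one of these 3 strains, before and after it. The 3 strains were grouped with the copper arrays known, so that match cannot check the grouping. Their copper means correlated at 0.69 to 0.88 over the 200 most variable genes, and at 0.88 to 0.91 after the subtraction.

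Spot position bears on the counts. With the running median subtracted, 33 genes were called (0.597%), 7 higher (0.127%) and 26 lower (0.471%), of which 18 were among the 20. Strain means then did not overlap for 425 genes (7.69%), of which 79 were among the 187, with 229 higher (4.15%) and 196 lower (3.55%). The differences of the 2 versions correlated at 0.81 across genes, and 11 genes (0.199%) were without overlap and differed by at least 1. Rows of the table next to each other lay on the same chromosome in 95.4% of pairs, so a running median over neighbours could also take up a shift of a whole chromosome. The median differences of the 16 nuclear chromosomes lay between -0.02 and 0.05. The values below are those of the centred arrays unless the running median is named.

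**Figure D2:**
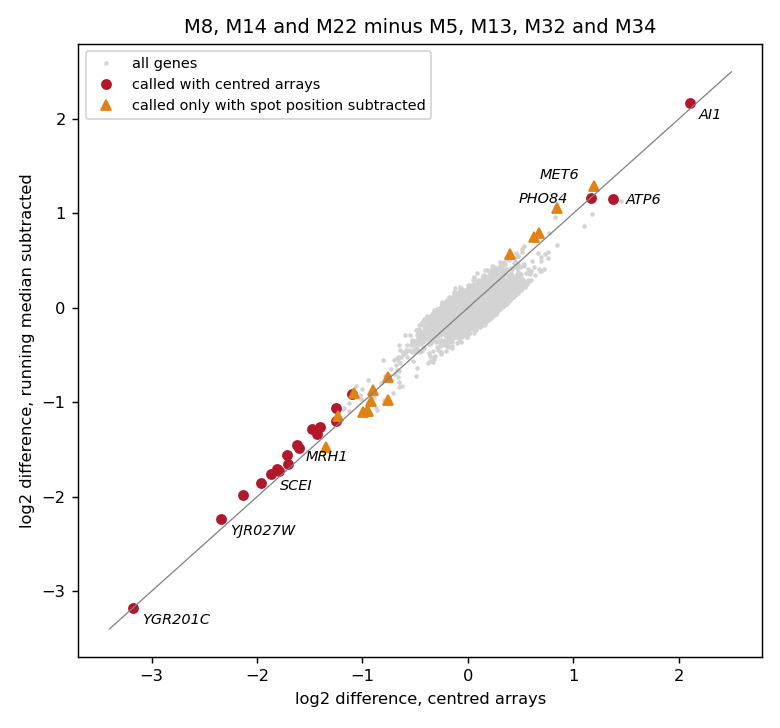
Difference of M8, M14 and M22 minus M5, M13, M32 and M34 in log2 units for 5524 genes, with centred arrays on the x axis and with the running median over spots subtracted on the y axis; the line marks equal values. Red points are the 20 genes called with centred arrays, and orange triangles are genes called only after the subtraction; the genes of largest difference lie close to the line.

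YJR027W, a long Ty1 frame, had the largest difference without overlap. It lay at -3.61 to -1.56 on the 9 arrays of M8, M14 and M22, with a median of -2.59. On the 12 arrays of the other strains it lay at -1.97 to 1.30, with a median of 0.09. Of the 9 arrays 6 lay below all 12; the other 3, of M14 and M22, lay above the lowest array of M5. Strain means were -2.83 in M8, -2.28 in M14 and -2.23 in M22, against -1.21 in M5, 0.42 in M13, -0.23 in M32 and 0.61 in M34. The difference was -2.34 ± 0.27 (SE). It was -2.23 with the running median subtracted and -2.74 in copper medium.

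YER138W-A, a short reading frame of 105 bases near the Ty1 frame YER138C, followed the same order of strains. Its strain means were -2.59 in M8, -2.03 in M14 and -1.79 in M22, against -1.35 in M5, 0.74 in M13, -0.69 in M32 and 1.26 in M34, a difference of -2.13 ± 0.29. The arrays overlapped: they ran from -3.54 to -1.08 in M8, M14 and M22 and from -2.55 to 1.67 in the other strains, and 4 of 9 lay below all 12. The lowest of the 12 were 1 array of M5 and 1 of M32.

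YGR161W-B, a long Ty2 frame, lay at -2.05 to -0.55 on the 9 arrays (median -1.25) and at -1.08 to 1.57 on the 12 (median -0.49). Its strain means were -1.71 in M8, -1.21 in M14 and -1.04 in M22, against -0.91 in M5, 1.17 in M13, -0.15 in M32 and -0.38 in M34. The difference was -1.25 ± 0.23, and 6 of 9 arrays lay below all 12. The gap between M22 and M5 was smaller than the SE, and M13 was the only strain above 0. The call was lost without M8 and without M13.

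**Figure D3:**
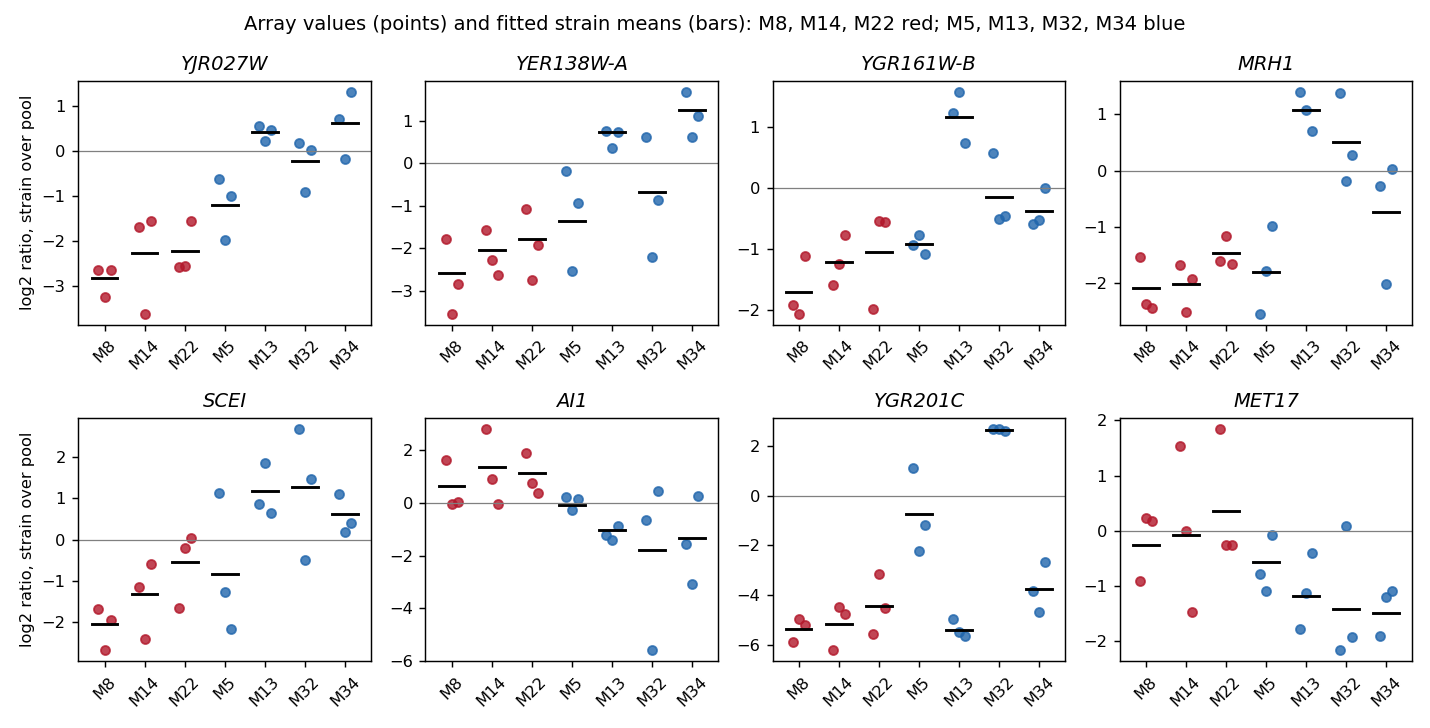
Array values (points, 3 per strain) and fitted strain means (bars) as log2 ratios of strain to pool for 8 genes, with M8, M14 and M22 in red on the left and M5, M13, M32 and M34 in blue on the right. For YJR027W, YER138W-A and MRH1 the points of M5 lie nearest to those of M8, M14 and M22. For YGR201C the bar of M13 lies at the level of theirs and that of M34 above them, while M5 lies far above.

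The Ty frames as families showed which strains set the difference. Families were assigned here by the annotated frame length. Of 68 frames, 64 had a difference below 0, against 2739 of all 5524 genes. Of the 68, 10 were called, all lower, against 0.308% of all genes. The median was -0.66, against 0.00 over all genes. All 22 long Ty1 frames lay below 0, with a median difference of -0.95, and 7 were called. The median over these 22 frames was -1.35 in M8, -1.35 in M14 and -1.17 in M22, against -1.28 in M5, -1.13 in M13, 0.34 in M32 and 0.99 in M34. M5 and M13 thus lay with M8, M14 and M22, and the mean of the 4 was raised by M32 and M34. Of the 22 frames, 17 had their highest value among the 7 strains in M34.

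The 8 long Ty2 frames had a median difference of -1.01, and 2 were called lower, against 0.308% of all genes. Their median was -1.49 in M8, -1.24 in M14 and -0.82 in M22, against -1.01 in M5, 1.03 in M13, -0.23 in M32 and -0.38 in M34. All 8 were highest in M13. In this family M5 lay between M14 and M22, and M13 stood above the other 3 strains of its side. The 27 short Ty1 frames had a median difference of -0.46 with 1 called, and the 8 short Ty2 frames one of -0.70 with 0 called.

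The array medians gave the same picture. Over the 22 long Ty1 frames the 9 arrays of M8, M14 and M22 lay at -1.93 to -0.67, and the 12 others at -2.55 to 1.13, with 6 below and 6 above 0. The 6 above 0 were all arrays of M32 and M34. Over the 8 long Ty2 frames the 9 arrays lay at -2.18 to -0.33 and the 12 others at -1.22 to 1.31.

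**Figure D4:**
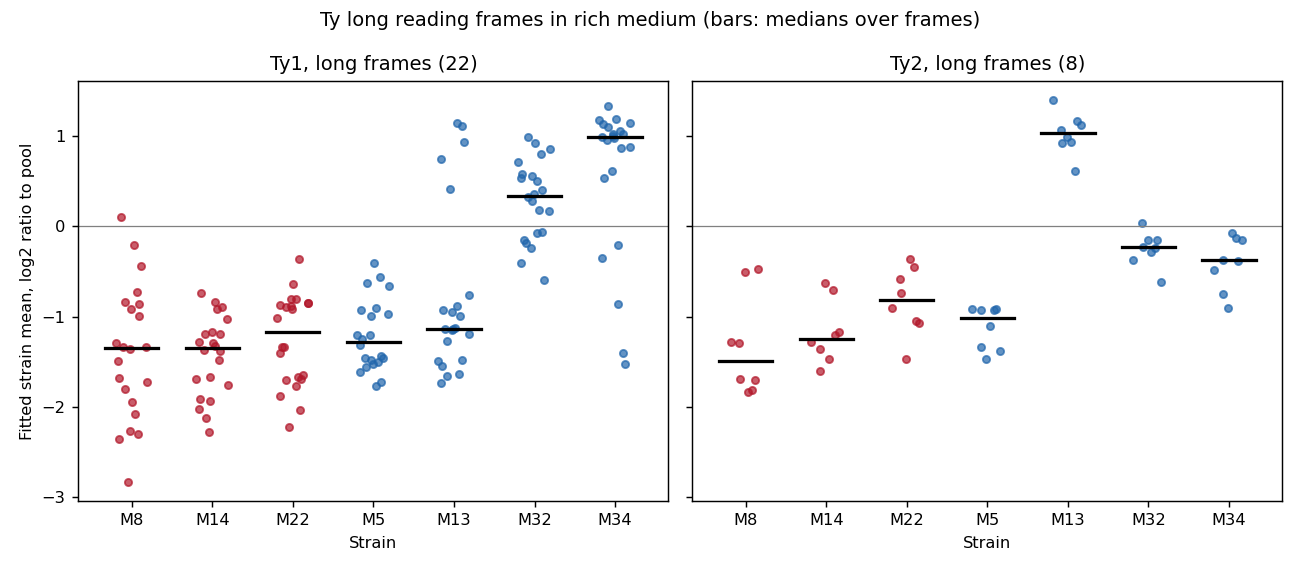
Fitted strain means as log2 ratios of strain to pool for the 22 long Ty1 frames (left) and 8 long Ty2 frames (right), 1 point per frame, with bars at the medians. Long Ty1 frames are high in M32 and M34 and long Ty2 frames in M13, while M5 lies at the level of M8, M14 and M22 in both.

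Within Ty1, 5 of 22 long frames were above 0 in M13, at 0.42 to 1.14, while the other 17 lay at -1.74 to -0.76. YLR227W-B was one of them, at 1.14 in M13 and -0.85 in M34. YGR038C-B was at 1.11 in M13 and -1.41 in M34. YJR027W was the only one of the 5 above 0 in both strains. YBL005W-A, a short Ty1 frame, was called at -1.97 ± 0.36. It lay at -4.16 to 0.33 on the 9 arrays of M8, M14 and M22 and was lowest in M14, at -3.18, against -0.75 in M5, -1.31 in M13, 0.62 in M32 and 1.06 in M34; M13 lay below M22.

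Over the 17 genes called lower, the nearest of the other strains to M8, M14 and M22 was M5 for 8 and M13 for 9. The farthest was M34 for 11, M13 for 4 and M32 for 2. After the subtraction, 21 of the 33 called genes were Ty frames, all lower. Of the 22 long Ty1 frames 11 were then called, against 0.471% of all genes called lower. In copper medium the median difference of the long frames was -1.30 for Ty1 and -1.17 for Ty2.

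YGR201C had the largest difference of all genes, -3.17 ± 0.45, but its strains did not split by side. It lay at -5.36 in M8, -5.16 in M14 and -4.43 in M22, against -0.74 in M5, -5.38 in M13, 2.62 in M32 and -3.75 in M34. M13 was as low as M8, and M32 was high on all 3 arrays, at 2.65, 2.67 and 2.60. The difference was -1.70 without M32 and -4.36 without M13. The call was lost without M32 and when the arrays were scaled to equal spread (-2.93).

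MRH1, which encodes a membrane protein related to Hsp30, was called at -1.62 ± 0.24. It lay at -2.51 to -1.16 on the 9 arrays of M8, M14 and M22, with a median of -1.68, and at -2.54 to 1.39 on the 12 others, with a median of -0.08. The strain means were -2.09 in M8, -2.02 in M14 and -1.46 in M22, against -1.79 in M5, 1.08 in M13, 0.51 in M32 and -0.73 in M34. M5 was again within the range of M8, M14 and M22. HOR7, a gene induced by osmotic stress, was without overlap but not called, at -1.01 ± 0.30. Its strain means were -1.47 in M8, -1.32 in M14 and -1.09 in M22, against -0.25 in M5, -0.06 in M13, -0.40 in M32 and -0.42 in M34.

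The mitochondrial genome encodes a few respiratory subunits, parts of ATP synthase and proteins of its introns. Some of these introns are known to be present in some strains and absent from others. Of 19 genes measured, 2 were called higher, against 0.0543% of all genes, and 1 lower, against 0.308%. The median difference was 0.06. AI1, the protein of the first intron of COX1, was higher at 2.11 ± 0.50. Its strain means were 0.65 in M8, 1.34 in M14 and 1.13 in M22, against -0.09 in M5, -1.04 in M13, -1.80 in M32 and -1.34 in M34. One array of M32, at -5.59, and 1 of M34, at -3.08, lay far below the other arrays of these strains, and 5 of 9 arrays of M8, M14 and M22 lay above all 12. The strain means stayed without overlap in 39 of 39 settings tried, and the gene was called in 14. COX1 itself differed by 0.04 ± 0.24.

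SCEI, the endonuclease of the intron of the large ribosomal RNA, was lower at -1.86 ± 0.36. Its strain means were -2.04 in M8, -1.32 in M14 and -0.55 in M22, against -0.82 in M5, 1.17 in M13, 1.27 in M32 and 0.62 in M34. The arrays of M22 were at -1.65, -0.21 and 0.03, and those of M5 at 1.14, -1.27 and -2.16, so these 2 strains overlapped. The call was lost without M8, without M32 and with only the 27 rich medium strain arrays. ATP6, a subunit of the membrane part of ATP synthase, was called at 1.38 ± 0.33. It was at 0.61 in M8, 0.45 in M14 and 0.33 in M22, against 0.49 in M5, -2.62 in M13, 0.00 in M32 and -1.53 in M34, so only M13 and M34 stood well below. The difference was 1.15 after subtraction of the running median, where ATP6 was not called; it was called in 13 of 39 settings. Of 39 nuclear genes for respiratory complexes and ATP synthase 0 were called, and the median difference was -0.15. The largest difference among them was that of RIP1, the Rieske protein of complex III, at -0.48 ± 0.16. Over the 39 genes the strain median was -0.26 in M8, -0.19 in M14 and 0.02 in M22. It was -0.50 in M5, 0.29 in M13, -0.11 in M32 and -0.05 in M34. M5 was thus the lowest strain and M13 the highest, both on the same side.

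Genes of sulfate assimilation and methionine synthesis mostly had differences above 0. Of 34 measured, 31 had a difference above 0, against 2785 of 5524 genes, and the median was 0.24. With centred arrays 0 were called, and strain means did not overlap for 7, all higher, against 1.07% of all genes. The 7 were MET5, MET17, MET10, MET13, MET2, MET1 and SUL2. MET17 makes homocysteine from sulfide, and its strain means were -0.25 in M8, -0.07 in M14 and 0.36 in M22, against -0.57 in M5, -1.19 in M13, -1.42 in M32 and -1.49 in M34, a difference of 1.18 ± 0.35. MET5, the beta subunit of sulfite reductase, was at 0.27 in M8, 0.32 in M14 and 0.20 in M22, against -0.47 in M5, -0.76 in M13, -0.71 in M32 and -1.42 in M34, a difference of 1.10 ± 0.36. Single arrays overlapped for both: MET17 was at -1.48 on 1 array of M14, and MET5 at 1.13 on 1 array of M32. The array medians of the list also overlapped, at -0.50 to 0.61 in M8, M14 and M22 and at -0.80 to 0.36 in the other strains. In replicates 1, 2 and 3 they were 0.45, -0.15 and 0.03 in M14 and 0.61, -0.50 and -0.18 in M22. In M8 they were 0.12, 0.27 and 0.19.

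MET10, the alpha subunit of sulfite reductase, differed by 0.76 ± 0.25. It was at -0.12 to 1.63 on the 9 arrays of M8, M14 and M22 (median 0.51) and at -0.96 to 0.26 on the 12 others (median -0.12), and 6 of 9 arrays lay above all 12. MET6, the methionine synthase, had the largest difference of the list, 1.19 ± 0.30, with M8 (-0.44) below M5 (-0.37).

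Spot position moved the place of M8 in this list. The median over the 34 genes was 0.28 in M8, -0.02 in M14 and 0.06 in M22, against -0.22 in M5, -0.21 in M13, -0.10 in M32 and -0.33 in M34. With the running median subtracted it was -0.02 in M8, 0.05 in M14 and 0.20 in M22, against -0.03 in M5, -0.18 in M13, -0.13 in M32 and -0.12 in M34. M8 and M5 were then level. Of the 34 genes, 28 then had a difference above 0, with a median of 0.19. The array medians of the list then lay at -0.06 to 0.57 in M8, M14 and M22, with 7 above 0. In the other strains they lay at -0.40 to -0.01, with 0 above 0. M14 and M22 were again highest on replicate 1, at 0.36 and 0.57. MET5 (0.87) and MET17 (0.99) no longer were without overlap, since M8 lay at -0.35 and -0.78 and M5 at -0.32 and -0.42. MET6, MET10, MET13, MET1 and MET4 were without overlap and higher, against 4.15% of all genes, and MET6 was called at 1.29. In copper medium the median difference of the list was 0.38, and MET5 (1.54), MET17 (1.44), MET6 (1.34) and MET10 (1.15) were called there.

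**Figure D5:**
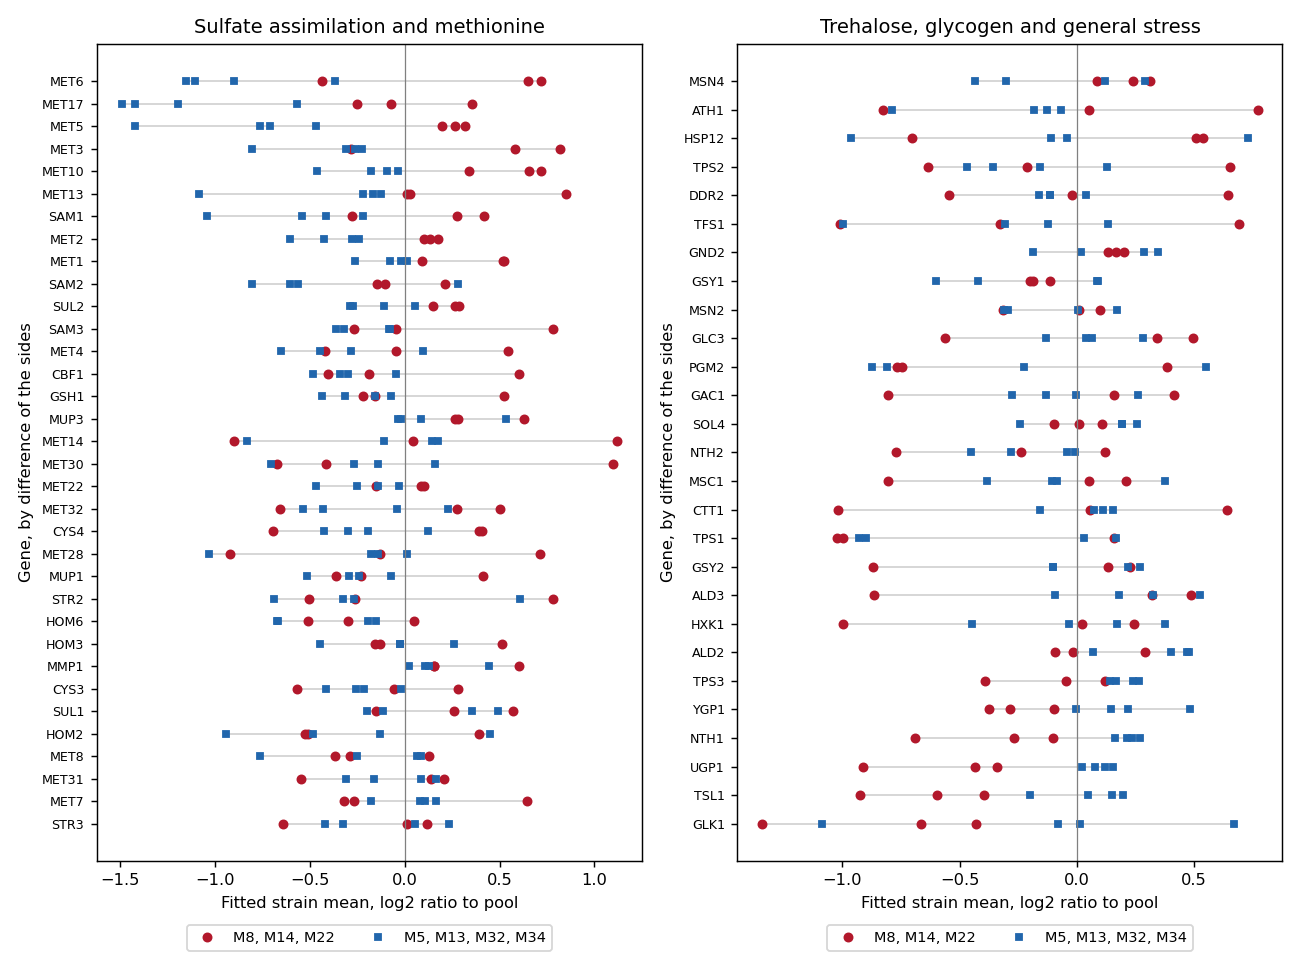
Fitted strain means as log2 ratios of strain to pool, centred arrays, for 34 genes of sulfate assimilation and methionine (left) and 27 of trehalose, glycogen and general stress (right), each sorted by the difference; red circles are M8, M14 and M22 and blue squares M5, M13, M32 and M34, and grey lines span all 7. Red circles lie right of all squares for 7 genes on the left and left of all squares for 5 genes on the right.

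The list of trehalose, glycogen and general stress had small differences. Of 27 genes, 17 were below 0, against 2739 of all 5524 genes, 0 were called, and the median difference was -0.10. The strain median of the list was -0.39 in M8, -0.02 in M14 and -0.10 in M22. It was -0.16 in M5, 0.07 in M13, 0.02 in M32 and 0.09 in M34, so M5 lay within the range of M8, M14 and M22. With the running median subtracted, M5, M14 and M22 were level at -0.12, and M8 was at -0.20. Strain means did not overlap for 5 genes, all lower, against 2.32% of all genes. UGP1, which makes UDP-glucose, was at -0.43 in M8, -0.91 in M14 and -0.34 in M22, against 0.08 in M5, 0.12 in M13, 0.02 in M32 and 0.16 in M34, a difference of -0.66 ± 0.19. TSL1, a large subunit of the trehalose synthase complex, differed by -0.69 ± 0.30, its related subunit TPS3 by -0.31 ± 0.19, the trehalase NTH1 by -0.57 ± 0.30 and the stress-induced glycoprotein YGP1 by -0.46 ± 0.28. Only UGP1 of these 5 overlapped once the running median was subtracted. The glucokinase GLK1 had the largest difference of the list, -0.69 ± 0.31, with 1 array of M14 at -3.09 and M5 within the range of M8, M14 and M22.

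Ribosome biogenesis genes had small differences that mostly pointed one way: 53 of 62 were above 0, against 2785 of all 5524 genes, with a median of 0.15, and 0 were called. Strain means did not overlap for 4, all higher, against 1.07% of all genes, namely TSR1 (0.36 ± 0.16), UTP20 (0.31 ± 0.22), KRI1 (0.29 ± 0.22) and CBF5 (0.23 ± 0.15). The array medians of the list overlapped widely, at -0.33 to 0.36 in M8, M14 and M22 and at -0.43 to 0.48 in the other strains. After subtraction of the running median the median was 0.14, and 11 genes were without overlap and higher, against 4.15% of all genes; UTP20 and KRI1 were among them, while TSR1 and CBF5 overlapped. In copper medium the median was 0.00. Over the 62 genes, the rich medium strain median was 0.05 in M8, -0.01 in M14 and 0.05 in M22. It was -0.13 in M5, -0.20 in M13, -0.01 in M32 and -0.16 in M34. M32 was thus level with M14, and M5, M13 and M34 stood lower. With the running median subtracted, M32 (0.01) lay above M8 (-0.04) and M14 (-0.01) and below M22 (0.11).

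Among 23 genes of the phosphate regulon, PHO84, the high-affinity phosphate transporter, was called at 1.17 ± 0.27. It lay at -0.92 in M8, -0.22 in M14 and 0.11 in M22, against -1.01 in M5, -2.26 in M13, -0.63 in M32 and -2.13 in M34, so M8 was below M32, and the difference rested on M13 and M34. The difference with the running median subtracted was also 1.17, and PHO84 was called in 21 of 39 settings. The list median was 0.23, and 0.09 without M8. Of 26 iron uptake genes 0 were called. The permease FTR1 (0.67 ± 0.25) and the siderophore transporter ARN1 (0.43 ± 0.23) were without overlap and higher, against 1.07% of all genes. FET3, the oxidase that works with FTR1, was at 0.85 ± 0.25 and not called; it was called in 4 of 39 settings, among them the running median subtracted (1.06). FET3 was at -0.17 in M8, 0.07 in M14 and 0.71 in M22, against -0.99 in M5, -1.19 in M13, -0.82 in M32 and 0.42 in M34, so M34 lay among the 3.

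Some genes with large differences followed 1 or 2 strains. YHB1, the flavohaemoglobin that detoxifies nitric oxide, was at 0.29 in M8, 0.45 in M14 and 0.09 in M22, against 0.22 in M5, 0.96 in M13, -3.19 in M32 and -2.67 in M34, a difference of 1.45 ± 0.51 that was not called. TIR2, a cell wall mannoprotein, differed by -1.23 ± 0.31 and was not called, with M32 at 1.23 and M5 (-0.62) within the range of M8, M14 and M22. The asparaginase copy ASP3-1 was at -1.67 in M8, -1.69 in M14 and -0.86 in M22, against -1.45 in M5, -0.65 in M13, 1.54 in M32 and -0.34 in M34. CUP1-1, the metallothionein that binds copper, was at 0.30 in M8, -0.39 in M14 and -0.48 in M22, against -2.09 in M5, -0.38 in M13, 0.20 in M32 and -1.40 in M34, a difference of 0.73 ± 0.41 that was not called. Its near-identical copy CUP1-2 shares its hybridization.

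Genes of mating type differed little between the sides. STE2, the receptor for alpha factor, differed by 0.20 ± 0.22, STE3, the receptor for a factor, by 0.13 ± 0.28, and HO, the endonuclease of mating type switching, by -0.04 ± 0.33. In M8, STE2 was at 0.81 and STE3 at 0.90, and with the running median subtracted their differences were 0.05 and -0.04. The histone list had 0 of 10 genes called and 2 without overlap and higher, against 1.07% of all genes. The copper homeostasis list had 0 of 14 called and a median of 0.08. Another 18 lists, from glycolysis to the proteasome, held 472 measured genes, of which 0 were called. Of the 472, 3 were without overlap and higher, against 1.07% of all genes, and 6 lower, against 2.32%. The medians of these lists ran from -0.23 to 0.11.

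In copper medium the same contrast called 38 genes (0.688%), and strain means did not overlap for 351 (6.35%). These arrays are other samples of the same 7 strains, and the grouping was made with them known. YGR201C differed by -3.28 there, MRH1 by -1.72, SCEI by -1.60, YGR161W-B by -1.14, AI1 by 1.62 and PHO84 by 0.76; the last 2 were not called.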

How the data were processed

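RNA of each strain and of the pool was labelled with Cy3 or Cy5 and hybridized to arrays, which were read with GenePix 4.0, per the labels. The deposited values are log2 ratios, since as powers of 2 they have 3 decimals (100% of the ratios under 10). How they were normalized, how bad spots were treated and which dye each channel held is not given in the sources used here. There were 6144 rows and 0 missing values, and array medians of log2 ran from -0.77 to 1.16. Names came from the platform table and the RefSeq R64 genes (5536 rows matched, 5 kept the platform name, 603 had no gene and were left out), and rows of 17 genes were averaged, which gave 5524 genes.

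Each array was centred on its median and turned to strain over pool. In limma 3.58.1 (R 4.3.3), all 54 strain arrays entered a single fit of 18 group means and a channel effect per gene, with Benjamini-Hochberg adjustment over all genes. The fit was also run on simulated data with independent noise on each array and no effect of spot position. That run checks the computation only and cannot show whether the calls hold on these arrays. For spot position the table was read as 16 blocks, each with 24 columns and 16 rows, a layout inferred from the values. Tables and figures were made in Python 3.11.15 (pandas 2.3.3, NumPy 2.4.6, matplotlib 3.10.9).

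The strains of each side, the 32 gene lists and the alternatives were chosen with earlier results of these data known. Genes were named by a rule: up to 12 called genes without overlap in each direction, per list the called genes of largest difference in each direction or else that of largest size, and YGR201C, PHO84, CUP1-1, STE2, STE3 and HO. Other genes were chosen after their values were seen. There were 38 alternatives, and another 7, which join the running median to leaving out a strain, were added after seeing the data.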

Additional observations from a re-analysis of the deposited data

Results flagged for a closer look

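Among 39 genes checked for a sample far from the others in the 9 arrays of M8, M14 and M22, 1 had such a sample; chance alone marks about 1 in 20 groups. GLK1 lay at -3.09 in M14 rich replicate 2, while the other 8 arrays lay between -1.10 and 0.42. With the running median over spots subtracted it was at -2.87, against -1.33 to 0.22.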

How the results depend on the processing

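With 20 genes called and 8 without overlap that differed by at least 1, alternatives moved the counts more than the named genes. Called genes numbered 12 without a channel effect, 12 with only the 27 rich medium strain arrays, 33 with the running median subtracted and 33 with arrays centred within 16 blocks. They numbered 7 without M8, 6 without M14, 35 without M5, 8 without M32 and 9 without M34. With the running median subtracted as well they numbered 5 without M14, 49 without M5 and 13 without M32. Genes without overlap and at least 1 apart numbered 15 without centring and 21 after the arrays were rescaled to the same spread. They numbered 31 without M22, 24 without M5 and 17 without M13. With a strain left out, fewer strain means have to stay apart, so such counts do not compare directly with 8. These genes numbered 11 without M8, 9 without M14, 10 without M32 and 9 without M34. With the running median subtracted as well they numbered 18 without M8, 13 without M14, 25 without M22, 32 without M5, 21 without M13, 13 without M32 and 15 without M34. Leaving out 1 array gave 12 to 24 called (12 without replicate 1 of M22 or replicate 2 of M14, 13 without replicate 1 of M14 or replicate 2 of M8) and 4 to 17 without overlap (4 without replicate 1 of M22, 17 without its replicate 2 or 3). The cause of these shifts was not tested. Of 1482 values of 39 named genes, 1480 moved by less than the spread between arrays and 0 reversed; YGR201C was -4.36 without M13 and -1.70 without M32. Of 1216 list medians, 4 moved: that of the phosphate regulon (0.08 with scaled arrays, 0.09 without M8), daughter cell separation (0.19 without M8) and sodium pumps (-0.21 without M8). Replicate numbers were not taken as pairs, since not every same-numbered pair of arrays of different strains correlated over 0.1 in their deviations. In the centred arrays these pairs lay at -0.56 to 0.74 (median 0.16, against -0.06 for different numbers; 36 of 63 over 0.1), and 16 of 21 arrays correlated best with one of their own number. After subtraction of the running median they lay at -0.20 to 0.65 (median 0.30, against -0.14; 50 of 63 over 0.1), and 20 of 21 did. These values do not show arrays of the same number to be independent, and a batch shared by number was not tested. Beyond the channel effect the fit took the arrays as independent, so the SE does not allow for such a likeness. Replicate 1 had the strain in channel 2 for every strain. Replicates 2 and 3 had it in channel 1, except replicate 3 of M5, which had it in channel 2. Effects of replicate number and channel can thus hardly be told apart. With the replicate number as a block in place of the channel effect, 25 genes were called, 3 of them higher, and 9 were without overlap.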
